A study of Mus musculus with 16 samples.

Results

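The tumour necrosis factor (TNF) superfamily of ligands and receptors was examined on 16 mouse arrays that hold 6 groups of cardiac or bone marrow cells. Members were all genes whose symbol on the array begins with Tnfsf or Tnfrsf, together with Tnf, Lta and Ltb. This gave 32 of the 17710 genes with a name, 13 ligands and 19 receptors, read by 36 probes; for the 4 members with several probes, the one with the highest mean over all arrays stood for the gene. All cells came from C57BL/6 mice of the genotype "Normal". The heart gave 3 arrays of cells that carry c-kit, the receptor of stem cell factor (heart c-kit). It gave another 3 of cells that were positive for stem cell antigen 1 but negative for CD45, found on leukocytes, and for CD31, found on endothelium (heart Sca1), and 2 of side population cells, gated by their export of a Hoechst dye (heart SP). The marrow gave 3 arrays of c-kit sorted cells (marrow c-kit) and 3 of mesenchymal stem cells harvested after 5 passages (MSC). The cardiomyocytes, collected by a short slow spin, were on 2 arrays. The labels name the same culture coating and medium for all samples without saying which cells were grown before RNA was taken, apart from the MSC.

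TNF superfamily ligands are mostly membrane-bound trimers that can be cleaved to soluble forms, and they cluster receptors on the target cell. Receptors with a death domain can start cell death, most others bind TRAF adaptors and activate NF-kB, and decoy receptors bind ligand without signalling. In the heart the family is best known from inflammation and injury, and in the marrow from osteoclast formation and lymphocyte survival.

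Each value is a log2 level of the Cy5 signal after quantile normalisation of the arrays, on a scale where 0 is close to the mean of all spots, and it is compared only within a probe. Differences were tested with limma over all 17710 genes with Benjamini-Hochberg adjustment, and an adjusted p under 0.05 counted as a call. Whether replicates are separate animals or cultures is not stated in the labels, so p-values measure the spread between these arrays, whose number limits the precision. The spread of a gene was estimated once over all 6 groups, although replicates were not equally alike. Their Pearson correlation was 0.79 to 0.81 in heart c-kit, 0.75 in SP cells and 0.89 in cardiomyocytes. In heart Sca1 cells, marrow c-kit cells and MSC it was 0.91 to 0.94. In sorted bulk RNA, fewer cells of a type and less RNA per cell cannot be told apart. The median spot intensity of an array ranged from 15 to 200, and it was 15 and 22 on the SP arrays and 18 on heart c-kit replicate 2. Markers of the labelled types were partly as labelled: the mean over 6 cardiomyocyte genes was 6.86 and 6.80 on the cardiomyocyte arrays and at most 3.28 on the heart Sca1 arrays, the next highest group. The mean over 10 endothelial genes was nevertheless 6.33 and 6.64 on the cardiomyocyte arrays, and it was 1.51, 1.52 and 4.98 on the heart Sca1 arrays, where replicate 3 stood apart. On the MSC arrays the mean over 11 macrophage and leukocyte genes was 6.19 to 6.64, the highest of the 6 groups, and on the marrow c-kit arrays the mean over 7 neutrophil genes was 5.15 to 5.66.

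A moderated F test across the 6 groups called 13 of the 32 members, against 31.9% of all genes, 5 of them ligands and 8 receptors. By rising p these were the receptors Tnfrsf12a and Tnfrsf23, the ligand Tnfsf10, the receptors Tnfrsf18, Tnfrsf26 and Tnfrsf11a, the ligands Tnfsf14, Tnf and Tnfsf9, the receptor Tnfrsf10b, the ligand Tnfsf18 and the receptors Tnfrsf21 and Tnfrsf4. The call was lost for Tnf without MSC replicate 1 (adjusted p = 0.0581), for Tnfrsf10b without heart c-kit replicate 2 (0.0776) or 3 (0.0623) and for Tnfsf18 without heart c-kit replicate 1 (0.0504) or 2 (0.0748), and the losses for Tnfrsf21 and Tnfrsf4 are given with these genes. The median F of the members was 2.88, and it was 2.55 over all genes. Heart c-kit cells had the highest mean for 13 of the 32 members, and they had it for 16.8% of all genes. Most of these are dim spots: 10 of the 13 had a median intensity under 100 over the 16 arrays, against 17 of all 32 members. Tnfrsf10b, Tnfrsf18 and Tnfrsf23 were brighter. The lowest mean lay in heart Sca1 cells for 11 members, against 17.5% of all genes.

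**Figure D1:**
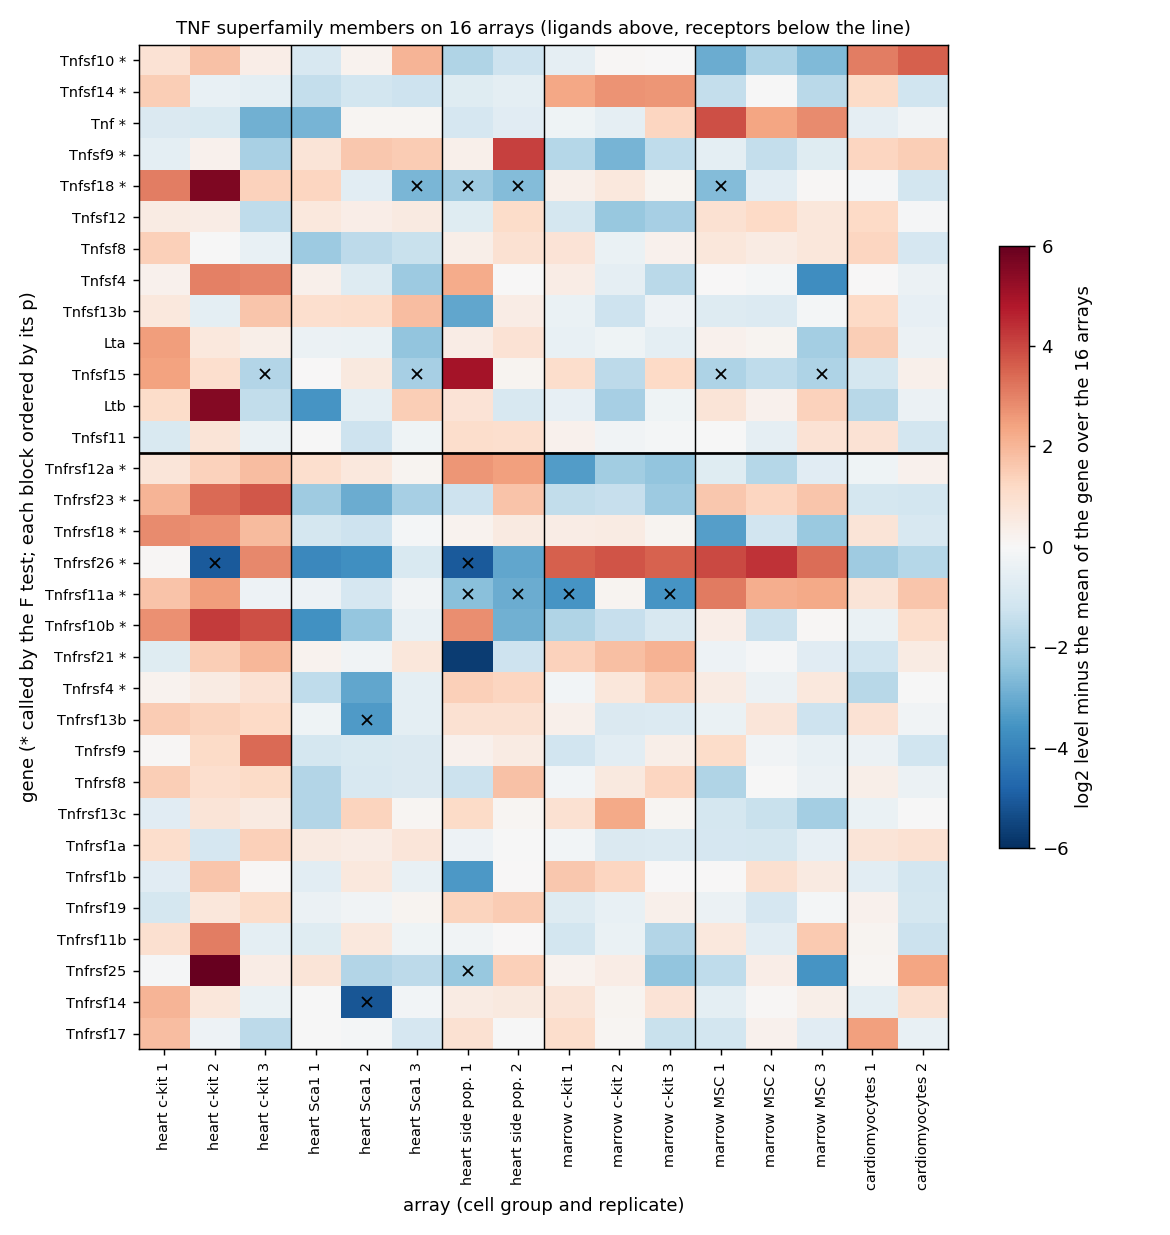
Log2 level of each of the 32 members on each of the 16 arrays, as the difference from the mean of that gene over all arrays (colour), with ligands above and receptors below the line, each ordered by the p of the F test. Crosses mark the fill value, which was taken here to stand for spots without a usable signal. Asterisks mark the 13 members called by the F test. The heart c-kit columns hold the highest mean for 13 members.

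Between the c-kit sorts of the 2 organs, 5 members were higher and 1 was lower in heart c-kit than in marrow c-kit cells. Of all genes 10.8% were called there, 4.89% as higher and 5.93% as lower. The 5 higher members were all receptors (Tnfrsf10b, Tnfrsf23, Tnfrsf12a, Tnfrsf11a and Tnfrsf18), and the lower one was the ligand Tnfsf14. The median log2 difference of the members was 1.20, and that of all genes was 0.11. Between heart Sca1 cells and MSC, 1 member was higher and 4 were lower in heart Sca1 cells. Of all genes 10.3% were called, 5.3% as higher and 5.01% as lower. Tnfsf10 was the higher one, and Tnf, Tnfrsf23, Tnfrsf26 and Tnfsf8 were the lower ones.

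Within the heart, 5 members were higher and none was lower in heart c-kit than in heart Sca1 cells. Of all genes 11.2% were called, 3.31% as higher and 7.87% as lower. The 5 members were Tnfrsf10b, Tnfrsf23, Tnfsf18, Tnfrsf18 and Tnfrsf13b. The log2 difference was positive for 27 of the 32 members, with a median of 1.61, and the median of all genes was 0.23. Of 7 mast cell markers 6 were measured, and their mean was 0.88 to 2.00 in heart c-kit and -2.71 to -0.02 in heart Sca1 cells, and 2.26 to 2.74 in marrow c-kit cells. The mast cell proteases Cma1 and Tpsb2 averaged 3.62 and 6.46 in heart c-kit cells, against -1.81 and 2.26 in heart Sca1 cells, whereas Ms4a2 and Hdc averaged -3.85 and -4.15 in heart c-kit cells, against -4.99 and -2.22 in heart Sca1 cells. The list includes Kit, the antigen of the sort. Other lists differed between these groups as well. The mean over 9 fibroblast and matrix genes was 0.17 to 1.76 in heart c-kit and 6.03 to 6.32 in heart Sca1 cells. The endothelial mean was 4.79 to 5.37 in heart c-kit and 1.51 to 4.98 in heart Sca1 cells. The part of these lists in the levels of the members was not tested. Within the marrow, 3 members were higher (Tnfsf14, Tnfrsf18 and Tnfsf10) and 4 were lower (Tnfrsf11a, Tnfrsf23, Tnf and Tnfsf12) in marrow c-kit cells than in MSC. Of all genes 11% were called, 3.66% as higher and 7.37% as lower.

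Few members were called against cardiomyocytes. In heart c-kit cells only Tnfrsf23 was called, as higher, against 3.6% of all genes (0.999% as higher and 2.6% as lower). In SP cells Tnfrsf12a was higher and Tnfsf10 lower, against 5.2% of all genes (1.91% as higher and 3.29% as lower). In heart Sca1 cells limma called none of the 32 members and 0% of all genes; at an unadjusted p under 0.05 stood 2 members and 2068 genes. The comparisons share arrays, so the heart c-kit arrays enter 3 of them, and the cardiomyocyte arrays also enter 3.

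Tnfrsf23, a decoy receptor of the mouse that binds the ligand encoded by Tnfsf10 without passing on a death signal, was called in 5 of the 7 comparisons. Its log2 level was 4.34, 5.71 and 6.05 in heart c-kit cells, 0.19, -0.68 and 0.32 in heart Sca1 cells, and 1.05 and 4.03 in SP cells. Marrow c-kit cells had 0.83, 0.94 and 0.15, and MSC had 3.95, 3.60 and 3.99. Both cardiomyocyte arrays read 1.23. Every heart c-kit array thus lay above every array of the other 5 groups, the MSC had the next highest mean, and the SP arrays lay far apart. The log2 difference was 4.73 ± 0.72 (SE, limma adjusted p = 0.000518) for heart c-kit minus marrow c-kit cells and 5.42 ± 0.72 (limma adjusted p = 0.000296) for heart c-kit minus heart Sca1 cells. It was -3.90 ± 0.72 (limma adjusted p = 0.00287) for heart Sca1 cells minus MSC and -3.21 ± 0.72 (limma adjusted p = 0.00914) for marrow c-kit cells minus MSC. These 4 calls stood in each of 16 refits that left out 1 array, but the last was lost when only the array medians were aligned or the deposited values were used. Heart c-kit cells exceeded cardiomyocytes by 4.14 ± 0.80 (limma adjusted p = 0.0105), a call that was lost without cardiomyocyte replicate 1 (adjusted p = 0.0726) or replicate 2 (adjusted p = 0.0926).

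Tnfrsf26, a related mouse receptor whose role is not settled, lies near Tnfrsf23 on chromosome 7 with only Tnfrsf22 between them, but had another pattern. It read 0.03, -5.10 and 2.83 in heart c-kit cells, -3.91, -3.73 and -0.95 in heart Sca1 cells, and -5.06 and -3.17 in SP cells. In marrow c-kit cells it read 3.55, 3.74 and 3.52, in MSC 3.91, 4.29 and 3.31, and in cardiomyocytes -2.16 and -1.76. All 6 marrow arrays lay above all 10 heart arrays, and the signal on heart c-kit replicate 2 and SP replicate 1 was the fill value. Heart Sca1 cells were lower than MSC by a log2 difference of -6.70 ± 1.45 (limma adjusted p = 0.00838). The difference of heart c-kit minus marrow c-kit cells was -4.35 ± 1.45 and was not called (limma adjusted p = 0.0756), as the 3 heart c-kit arrays spanned the range from the fill value to 2.83. The sequences of the probes were not used here, so whether the probes of Tnfrsf23 and Tnfrsf26 can bind RNA of each other or of Tnfrsf22 was not tested.

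Tnfsf12 encodes the ligand TWEAK, and Tnfrsf12a encodes its receptor Fn14, a small TRAF-binding receptor known to be induced by injury and growth factors. For Tnfsf12 marrow c-kit cells had 2.49, 1.27 and 1.56 and MSC had 4.49, 4.77 and 4.25, and the 10 heart arrays ranged from 2.04 to 4.75. Marrow c-kit cells were lower than MSC by -2.73 ± 0.68 (limma adjusted p = 0.0178), with no overlap; the call was lost without marrow c-kit replicate 2 (adjusted p = 0.0774) or 3 (0.0637), or without MSC replicate 1 (0.0601) or 2 (0.0674). In the main fit, with the normalisation and tests given above, the F test did not call Tnfsf12 (limma adjusted p = 0.0547). It did under 5 of the other settings listed with the processing.

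Tnfrsf12a had the smallest F-test p of the family (F = 19.2, limma adjusted p = 0.000197). Its log2 level was 6.53, 7.20 and 7.65 in heart c-kit cells, 6.81, 6.46 and 5.97 in heart Sca1 cells, and 8.45 and 8.28 in SP cells. In marrow c-kit cells it was 2.46, 3.73 and 3.45, in MSC 5.08, 4.11 and 5.13, and in cardiomyocytes 5.57 and 6.07. By the probe used, all heart arrays lay above all marrow arrays, the SP arrays were the highest and the marrow c-kit arrays the lowest. By a second probe the mean was again highest in SP and lowest in marrow c-kit cells. That of MSC (4.02) was above those of heart Sca1 cells (2.09) and cardiomyocytes (1.59). Heart c-kit exceeded marrow c-kit cells by 3.91 ± 0.55 (limma adjusted p = 0.000269), and the second probe gave 5.96. The difference of heart Sca1 cells minus MSC was 1.64 ± 0.55 and was not called (limma adjusted p = 0.0769), but it was under 5 of the other settings. The second probe pointed the other way there, with -1.93. SP cells exceeded cardiomyocytes by 2.55 ± 0.67 (limma adjusted p = 0.0425), and the second probe gave 4.41. That call was lost in 12 of the 16 refits that left out 1 array, with adjusted p up to 0.176 and log2 differences between 2.29 and 2.81.

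**Figure D2:**
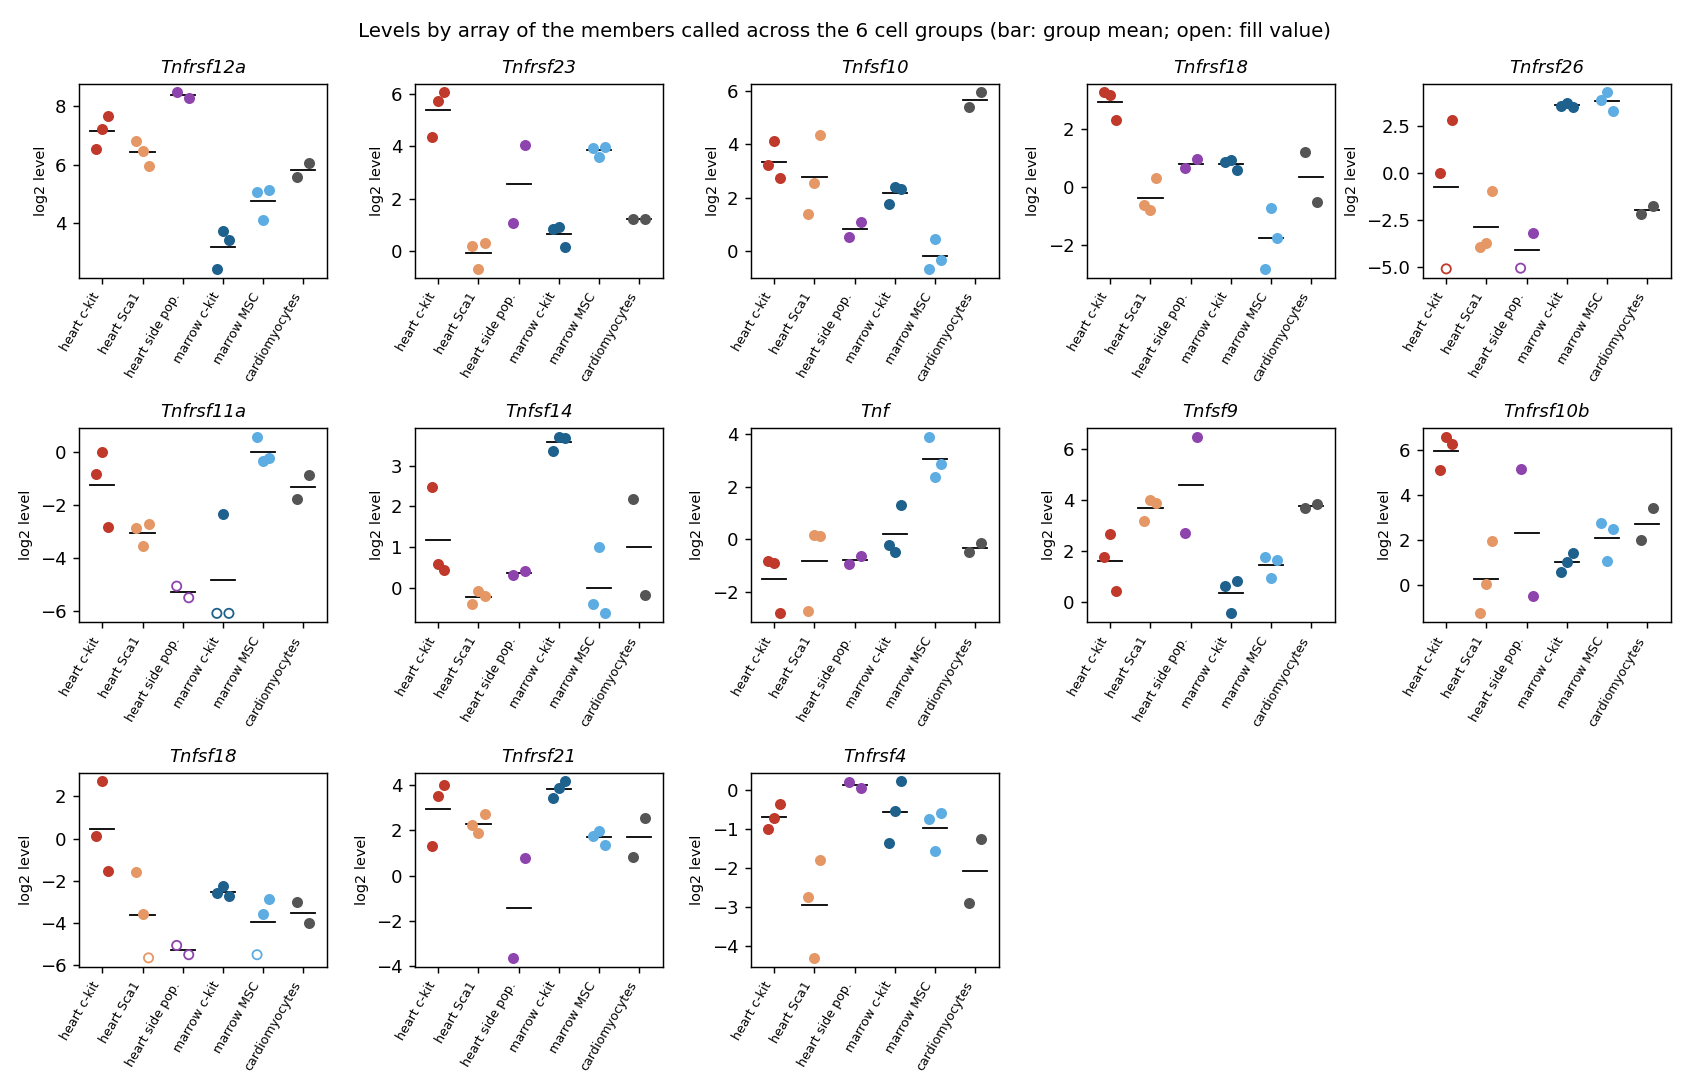
Log2 level by array (points) and mean by group (bars) of the 13 members called across the 6 groups, with open points at the fill value; the vertical scale differs between panels. Tnfrsf12a, by the probe used, is above all marrow arrays on all heart arrays. Tnfrsf23 is highest on the 3 heart c-kit arrays, Tnf is highest on the 3 MSC arrays and Tnfsf10 on the 2 cardiomyocyte arrays.

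The promoters of the 2 members with the smallest F-test p are shown because the F test set the groups apart most clearly for these 2 genes. The bases are the 250 before a start listed in RefSeq (GRCm38.p6), where 26 of the 32 members had an entry. Capitals mark matches, on either strand, to the motifs searched: kappa-B, the site of NF-kB (GGG and TTCC with any 3 bases between them), AP-1 (TGANTCA), the GC box (GGGCGG) and the TATA box (TATAAA). Tnfrsf12a lies at chr17:23677450-23677699 and Tnfrsf23 at chr7:143685876-143686125, both on the minus strand. The first window lies outside the annotated gene, which ends at 23677449, and the second lies inside the annotated span of Tnfrsf23, which reaches to 143686436.
Tnfrsf12a: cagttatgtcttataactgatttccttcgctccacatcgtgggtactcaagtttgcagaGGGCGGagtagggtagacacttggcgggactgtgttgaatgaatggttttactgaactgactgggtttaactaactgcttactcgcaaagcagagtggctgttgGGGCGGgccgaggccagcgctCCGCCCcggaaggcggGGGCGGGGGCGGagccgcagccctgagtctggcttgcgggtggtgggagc
Tnfrsf23: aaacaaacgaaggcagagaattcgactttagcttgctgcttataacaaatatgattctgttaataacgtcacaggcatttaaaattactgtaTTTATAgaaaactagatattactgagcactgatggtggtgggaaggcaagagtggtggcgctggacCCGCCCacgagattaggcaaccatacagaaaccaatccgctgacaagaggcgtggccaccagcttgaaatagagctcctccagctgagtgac
The window of Tnfrsf12a holds 5 GC boxes, and that of Tnfrsf23 holds 1 GC box and 1 TATA box, with the TATA box on the reverse strand. Neither window holds the letters of the kappa-B or AP-1 motif. Of the 26 members with an entry, 11 had a GC box, 6 a TATA box, 4 an AP-1 and 3 a kappa-B match, against 32.7%, 12.4%, 6.75% and 4.65% of all 32851 promoters. The units differ: a member counted if any of its entries matched, and the shares are of single promoters. Tnfrsf9, Tnfrsf19, Tnfrsf25 and Tnfsf13b had 2 entries each, which can raise the member counts. A match of letters is a description and does not show that a factor binds there.

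Tnfsf10 encodes the death ligand TRAIL, and Tnfrsf10b encodes the death domain receptor of the mouse that it binds. Tnfsf10 read 3.21, 4.11 and 2.73 in heart c-kit cells, 1.38, 2.56 and 4.34 in heart Sca1 cells, and 0.52 and 1.10 in SP cells. In marrow c-kit cells it read 1.77, 2.38 and 2.34, in MSC -0.66, 0.47 and -0.33, and in cardiomyocytes 5.39 and 5.93. Cardiomyocytes were above, and MSC below, all arrays of the other groups. SP cells were lower than cardiomyocytes by -4.85 ± 0.86 (limma adjusted p = 0.0067), a call that was lost without cardiomyocyte replicate 2 (adjusted p = 0.0527). Heart Sca1 cells exceeded MSC by 2.93 ± 0.70 (limma adjusted p = 0.0149), which was lost without heart Sca1 replicate 3 (2.14, adjusted p = 0.0679), MSC replicate 1 (adjusted p = 0.0697) or MSC replicate 3 (adjusted p = 0.0557). Marrow c-kit cells exceeded MSC by 2.34 ± 0.70 (limma adjusted p = 0.0462), and this was lost in 9 of the 16 refits, among them each that left out an array of these 2 groups, with adjusted p up to 0.170.

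The endothelial markers, like Tnfsf10, were highest in cardiomyocytes and lowest in MSC. Their mean was 4.79 to 5.37 in heart c-kit cells, 1.51, 1.52 and 4.98 in heart Sca1 cells, 0.77 and 1.35 in SP cells, 0.14 to 0.43 in marrow c-kit cells, -0.85 to -0.52 in MSC and 6.33 and 6.64 in cardiomyocytes. Marrow c-kit cells had lower markers than SP cells but a higher level of Tnfsf10. All 10 listed markers were measured, and 1 of them was at the fill value on 1 array, an SP array. Heart Sca1 replicate 3 was the highest of its group for the markers and for Tnfsf10 alike, and the part of endothelial RNA in the level of Tnfsf10 was not tested.

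Tnfrsf10b read 5.10, 6.58 and 6.25 in heart c-kit cells, -1.28, 0.04 and 1.95 in heart Sca1 cells, and 5.16 and -0.51 in SP cells. In marrow c-kit cells it read 0.56, 0.99 and 1.43, in MSC 2.75, 1.07 and 2.46, and in cardiomyocytes 1.97 and 3.43. Apart from SP replicate 1, which lay among the heart c-kit arrays, all arrays of the other groups were lower than the heart c-kit arrays. Heart c-kit exceeded heart Sca1 cells by 5.74 ± 1.18 (limma adjusted p = 0.00683) and marrow c-kit cells by 4.98 ± 1.18 (limma adjusted p = 0.0134). Both calls stood in all 16 refits that left out 1 array, with adjusted p up to 0.0492, and the second was lost with the deposited values. Against cardiomyocytes the difference of heart c-kit cells was 3.28 ± 1.32 and was not called (limma adjusted p = 0.228).

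Tnf, the inflammatory cytokine made mainly by macrophages, read -0.81, -0.90 and -2.83 in heart c-kit cells, -2.74, 0.15 and 0.14 in heart Sca1 cells, and -0.95 and -0.62 in SP cells. Marrow c-kit cells had -0.22, -0.48 and 1.32, MSC had 3.91, 2.38 and 2.89, and cardiomyocytes had -0.49 and -0.15. The 3 MSC arrays lay above the other 13. Heart Sca1 cells were lower than MSC by -3.88 ± 0.85 (limma adjusted p = 0.00879), in all 16 refits. Marrow c-kit cells were lower than MSC by -2.85 ± 0.85 (limma adjusted p = 0.0442), which was lost in 10 refits, among them those without any of the MSC arrays and without marrow c-kit replicate 1 or 2, with adjusted p up to 0.177. The macrophage and leukocyte markers were highest on the same 3 arrays: 11 of 14 were measured, with a mean of 6.19 to 6.64 in MSC, 3.02 to 3.74 in marrow c-kit cells, 2.87 and 3.73 in cardiomyocytes and -1.11, -0.91 and 2.51 in heart Sca1 cells. The defining markers Csf1r and Adgre1 averaged 6.45 and 5.68 in MSC, against -1.45 and -0.36 in heart Sca1 cells. Their part in the level of Tnf was not tested.

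**Figure D3:**
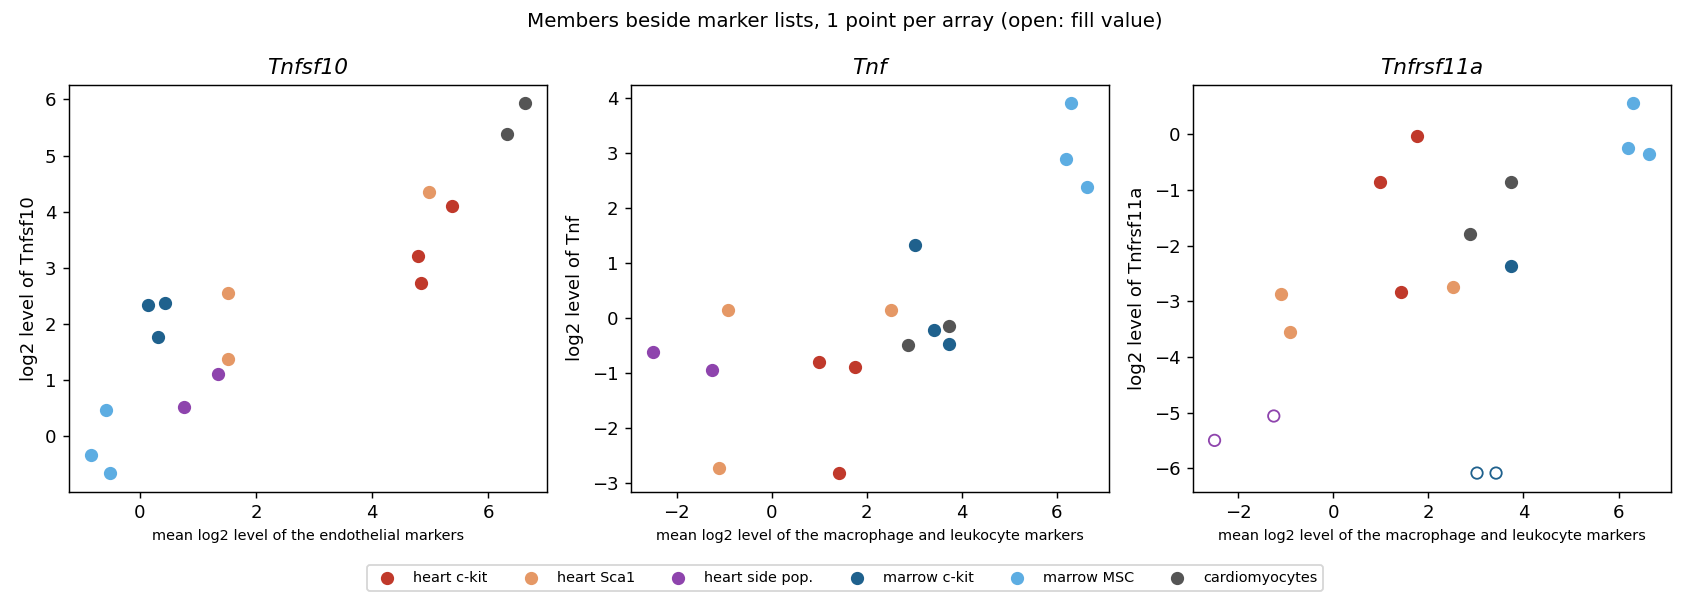
Log2 level of Tnfsf10, Tnf and Tnfrsf11a (vertical) against the mean log2 level of a marker list (horizontal), with 1 point per array coloured by group and open points at the fill value. Tnfsf10 is highest on the 2 cardiomyocyte arrays, where the endothelial markers are highest. Tnf is highest on the 3 MSC arrays, where the macrophage and leukocyte markers are highest. Tnfrsf11a has its highest mean in MSC, at -0.01, but heart c-kit replicate 2 lies above MSC replicates 2 and 3.

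Both receptor genes of Tnf read above 0 on all 16 arrays, and neither was called in any test of the main fit. Under other settings Tnfrsf1a was called, by the F test under 1 and for heart Sca1 cells minus MSC under 2. Tnfrsf1a, the receptor with a death domain, ranged from 3.54 to 6.02 over the 16 arrays. Its largest difference among the 7 comparisons was 1.41 ± 0.60 for heart Sca1 cells minus MSC (limma adjusted p = 0.184, 95% interval from 0.11 to 2.71), and the sign of its 3 differences from cardiomyocytes turned when only array medians were aligned. Tnfrsf1b, the receptor without a death domain, ranged from 2.01 on SP replicate 1 to 7.12 on heart c-kit replicate 2. For heart c-kit minus marrow c-kit cells its difference was -0.63 ± 0.86 (limma adjusted p = 0.739), with a 95% interval from -2.47 to 1.21. A second probe of the gene gave -2.62, and with only array medians aligned the difference of the first was 0.71. Tnfrsf21, a death domain receptor studied mostly in neurons, was called by the F test (limma adjusted p = 0.0278) and in no pairwise comparison of the main fit. Marrow c-kit cells had 3.41, 3.87 and 4.16 and MSC had 1.76, 1.99 and 1.37, and the level was lowest on SP replicate 1, at -3.63. Without that array the F test no longer called it (adjusted p = 0.0990), nor without marrow c-kit replicate 2 (0.0586) or 3 (0.0620).

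Tnfsf11 encodes RANK ligand, Tnfrsf11a its receptor RANK, which osteoclast precursors need, and Tnfrsf11b the decoy osteoprotegerin. Tnfrsf11a read -0.85, -0.03 and -2.83 in heart c-kit cells, -2.87, -3.56 and -2.74 in heart Sca1 cells, 0.56, -0.35 and -0.25 in MSC, and -1.79 and -0.86 in cardiomyocytes. It was at the fill value on both SP arrays and on marrow c-kit replicates 1 and 3, and it read -2.36 on marrow c-kit replicate 2. These are dim spots, with at most 147 intensity units, and the size of differences from marrow c-kit cells is uncertain. Marrow c-kit cells were lower than MSC by -4.83 ± 0.94 (limma adjusted p = 0.00372), and the call stood in all 16 refits. Raising low values to the 30th percentile left it standing, at -2.26. Heart c-kit exceeded marrow c-kit cells by 3.61 ± 0.94 (limma adjusted p = 0.0228), although heart c-kit replicate 3 lay below marrow c-kit replicate 2. With low values raised, that difference was 1.22 (adjusted p = 0.130). The call was also lost without marrow c-kit replicate 1 (adjusted p = 0.0994) or 3 (0.111), or without heart c-kit replicate 1 (0.0619) or 2 (0.0852). The macrophage and leukocyte markers, described for Tnf, were also highest in MSC. Heart c-kit cells had a mean of 0.99 to 1.76 on that list, although Tnfrsf11a on heart c-kit replicate 2 lay above MSC replicates 2 and 3. Marrow c-kit cells, with Tnfrsf11a at the fill value on replicates 1 and 3, had a marker mean of 3.02 to 3.74. The part of these markers in the level of Tnfrsf11a was not tested.

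Neither the ligand nor the decoy of this set was called. Tnfsf11 ranged from 0.74 to 3.02 over the 16 arrays, with the highest mean in SP cells. Its difference for heart c-kit minus marrow c-kit cells was -0.17 ± 0.66 (limma adjusted p = 0.924, 95% interval from -1.58 to 1.24). Tnfrsf11b ranged from -2.10 to 2.75, with the highest array in heart c-kit cells. The difference of heart c-kit minus marrow c-kit cells was 2.24 ± 0.87 (limma adjusted p = 0.131).

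The costimulatory pairs of T cells came next. Tnfrsf18, also known as GITR, read 3.28, 3.19 and 2.34 in heart c-kit cells, -0.62, -0.80 and 0.32 in heart Sca1 cells, and 0.64 and 0.98 in SP cells. Marrow c-kit cells had 0.88, 0.93 and 0.60, MSC had -2.84, -0.72 and -1.78, and cardiomyocytes had 1.22 and -0.54. The heart c-kit arrays were above and the MSC arrays, apart from replicate 2, below all others. Heart c-kit exceeded heart Sca1 cells by 3.30 ± 0.65 (limma adjusted p = 0.00486) and marrow c-kit cells by 2.13 ± 0.65 (limma adjusted p = 0.0491), and marrow c-kit cells exceeded MSC by 2.58 ± 0.65 (limma adjusted p = 0.0183). The first of these stood in all 16 refits, the second was lost in 11 of them (adjusted p up to 0.134), and the last was lost in 4, those without marrow c-kit replicate 1 or 2 or MSC replicate 1 or 3 (adjusted p up to 0.107). A second probe of Tnfrsf18 gave -0.34, -1.07 and 2.24 for the same 3 differences, so it did not show the high level in heart c-kit cells. With the mean over both probes the first 2 differences were 1.48 (adjusted p = 0.170) and 0.53 (adjusted p = 0.710).

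Its ligand gene Tnfsf18 read 0.14, 2.70 and -1.53 in heart c-kit cells, -1.60 and -3.56 in heart Sca1 replicates 1 and 2, -2.60, -2.26 and -2.74 in marrow c-kit cells and -2.99 and -4.02 in cardiomyocytes. It was at the fill value on both SP arrays, on heart Sca1 replicate 3 and on MSC replicate 1, and the other MSC arrays read -3.56 and -2.84. All 3 heart c-kit arrays lay above the other 13, heart c-kit replicate 3 only just. Heart c-kit exceeded heart Sca1 cells by 4.04 ± 1.10 (limma adjusted p = 0.0304), a value whose size is uncertain near the fill. The call was lost without heart c-kit replicate 1 (adjusted p = 0.0560) or 2 (2.95, adjusted p = 0.114), and without heart Sca1 replicate 2 (adjusted p = 0.0778) or 3 (2.98, adjusted p = 0.135). It was also lost with low values raised in the way described for Tnfrsf11a (2.49, adjusted p = 0.0527), as was the F-test call (0.0694), with array weights (0.0990) and with only the groups compared (0.156).

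Tnfsf4 and its receptor gene Tnfrsf4, the pair that prolongs T cell responses, differed less. Tnfsf4, the neighbour of Tnfsf18 on chromosome 1, was not called and ranged from -6.33 to 0.43, with its highest mean in heart c-kit cells. Tnfrsf4, the neighbour of Tnfrsf18 on chromosome 4, was called by the F test (limma adjusted p = 0.0400) and in no pairwise comparison of the main fit. It read -2.74, -4.29 and -1.79 in heart Sca1 cells and 0.23 and 0.07 in SP cells. The F-test call was lost in 10 of the 16 refits, with adjusted p up to 0.120.

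Tnfsf14, also known as LIGHT, read 2.49, 0.58 and 0.44 in heart c-kit cells, -0.40, -0.08 and -0.20 in heart Sca1 cells, and 0.31 and 0.42 in SP cells. Marrow c-kit cells had 3.36, 3.70 and 3.68, MSC had -0.39, 1.02 and -0.62, and cardiomyocytes had 2.19 and -0.17. The 3 marrow c-kit arrays were above all others. Marrow c-kit cells exceeded MSC by 3.58 ± 0.71 (limma adjusted p = 0.00444), in all 16 refits. Heart c-kit cells were lower than marrow c-kit cells by -2.41 ± 0.71 (limma adjusted p = 0.0439), which was lost in 10 refits, with adjusted p up to 0.136. The neutrophil markers were high on the same 3 arrays: all 7 were measured, with a mean of 5.15 to 5.66 in marrow c-kit cells and at most 0.25 on any other array, Mpo averaged 9.56 there, and S100a8 averaged -5.09. Their part in the level of Tnfsf14 was not tested. Its receptor gene Tnfrsf14 ranged from -5.85, the fill value on heart Sca1 replicate 2, to 1.31 and was not called.

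Tnfsf9, the ligand of the costimulatory receptor that Tnfrsf9 encodes, was called by the F test (limma adjusted p = 0.0130) and in no pairwise comparison of the main fit. It read 1.77, 2.65 and 0.42 in heart c-kit cells, 3.16, 4.01 and 3.89 in heart Sca1 cells, 2.69 and 6.45 in SP cells, and 3.67 and 3.83 in cardiomyocytes. In marrow c-kit cells it read 0.64, -0.43 and 0.84, and in MSC 1.76, 0.94 and 1.65. The arrays of heart Sca1 cells, SP cells and cardiomyocytes were all above those of heart c-kit cells, marrow c-kit cells and MSC. The difference of heart Sca1 cells minus MSC was 2.24 ± 0.85 (limma adjusted p = 0.122). Tnfrsf9 itself read 0.51, 1.56 and 3.82 in heart c-kit cells and -0.62, -0.49 and -0.44 in heart Sca1 cells. Its difference of heart c-kit minus heart Sca1 cells was 2.48 ± 0.77, just short of a call (limma adjusted p = 0.0533).

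Of the remaining costimulatory pairs, Tnfsf8 read -1.86, -1.27 and -1.03 in heart Sca1 cells and 0.98, 0.80 and 0.98 in MSC. The difference was -2.31 ± 0.67 (limma adjusted p = 0.0425), and it was lost in 9 of the 16 refits, with adjusted p up to 0.149. Its receptor gene Tnfrsf8 ranged from -3.69 to -0.13 and was not called. Tnfsf15 and Tnfrsf25, a ligand and its death domain receptor, were not called either. The 2 probes of Tnfsf15 were unrelated over the 16 arrays (Pearson r = -0.03, a description), and the probe used was at the fill value on 4 arrays. Tnfrsf25 was highest on heart c-kit replicate 2, at 4.13, and the other heart c-kit arrays read -2.88 and -2.34.

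The set that keeps B cells alive holds the ligand Tnfsf13b, known as BAFF, and the receptors Tnfrsf13b, Tnfrsf13c and Tnfrsf17. Tnfrsf13b read -0.95, -1.12 and -1.27 in heart c-kit cells and -2.74, -5.85 and -3.03 in heart Sca1 cells. The difference was 2.76 ± 0.79 (limma adjusted p = 0.0367). It rested in part on heart Sca1 replicate 2, which was at the fill value: without it the difference was 1.75 (adjusted p = 0.146), and the call was also lost without any of the 3 heart c-kit arrays, marrow c-kit replicate 2 or MSC replicate 1. Tnfsf13b, Tnfrsf13c and Tnfrsf17 were not called in any comparison of the main fit. Tnfsf13b had its highest mean in heart Sca1 cells, where it read 1.67, 1.69 and 2.50, against -0.10, -0.15 and 0.51 in MSC (difference 1.87 ± 0.85, limma adjusted p = 0.214). Of the 8 measured B and T cell markers, the mean was -2.17 to -0.39 on all 16 arrays, below the mean of all spots in every group.

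The lymphotoxin genes Lta and Ltb flank Tnf on chromosome 17, and neither was called. Lta ranged from -4.38 to 0.49 and Ltb from -4.86 to 4.20, both highest on a heart c-kit array. Their highest means lay in heart c-kit cells, and that of Tnf lay in MSC. Tnfrsf19, a receptor without a settled ligand that is known from stem cells of the skin and gut, ranged from 0.23 to 2.80 and was not called. It was highest on the 2 SP arrays, at 2.64 and 2.80, and the other 14 arrays reached at most 2.40.

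Whether the difference between heart and marrow was itself different for the c-kit sorts and for heart Sca1 cells with MSC was tested as an interaction. This was the difference of heart c-kit minus marrow c-kit cells less the difference of heart Sca1 cells minus MSC. Heart Sca1 cells and MSC were unlike in markers. The mean over 9 fibroblast and matrix genes was 6.03 to 6.32 in heart Sca1 cells and 2.53 to 3.67 in MSC. Over 11 macrophage and leukocyte genes it was -1.11 to 2.51 in heart Sca1 cells and 6.19 to 6.64 in MSC. The interaction was called for 3 of the 32 members, all as higher, against 7.46% of all genes (3.66% as higher and 3.8% as lower), and all 3 are receptors. For Tnfrsf23 the 2 differences, 4.73 and -3.90, had opposite signs, and the interaction was 8.63 ± 1.01 (limma adjusted p = 0.000172). For Tnfrsf11a they were 3.61 and -3.04, the second not called (limma adjusted p = 0.0561) except under 5 of the other settings. Its interaction was 6.65 ± 1.33 (limma adjusted p = 0.00726). For Tnfrsf10b the 2 differences were 4.98 and -1.86, the second not called (limma adjusted p = 0.413). The interaction of Tnfrsf10b was 6.84 ± 1.68 (limma adjusted p = 0.0238). The interactions of Tnfrsf23 and Tnfrsf11a stood in all 16 refits. That of Tnfrsf10b was lost without marrow c-kit replicate 1 or 2, MSC replicate 1 or 3 or heart Sca1 replicate 1 or 2, with adjusted p up to 0.0630, and when only array medians were aligned or the deposited values were used.

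**Figure D4:**
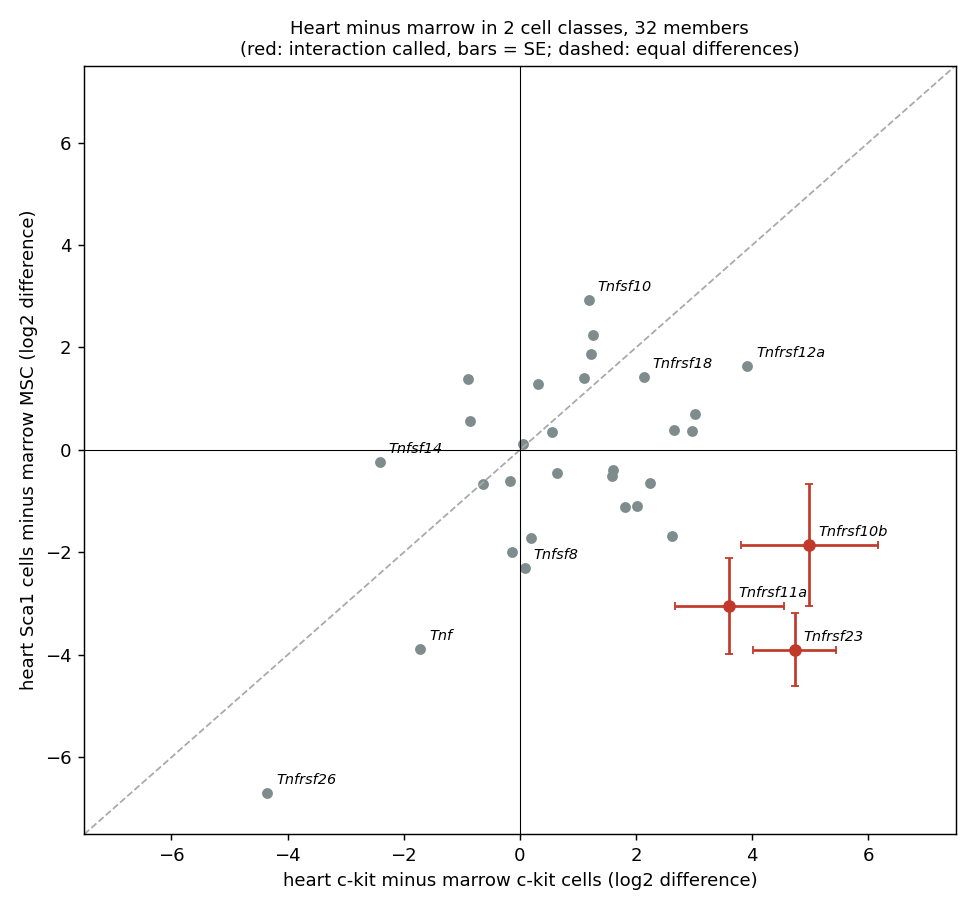
Log2 difference of heart Sca1 cells minus MSC (vertical) against that of heart c-kit minus marrow c-kit cells (horizontal), with 1 point for each of the 32 members. Red points with SE bars mark the 3 receptors called for the interaction, Tnfrsf23, Tnfrsf11a and Tnfrsf10b, which lie at the lower right, and the dashed line marks equal differences.

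Heart c-kit replicate 2 and heart Sca1 replicate 3, the arrays that stood apart in brightness and in markers, did not decide the calls of Tnfrsf23. Without heart c-kit replicate 2 the difference of heart c-kit minus marrow c-kit cells was 4.45 (adjusted p = 0.00295) for Tnfrsf23, 4.57 (adjusted p = 0.0492) for Tnfrsf10b and 3.82 (adjusted p = 0.00121) for Tnfrsf12a. The other 3 calls in that comparison were lost, those of Tnfrsf18 (1.96, adjusted p = 0.124), Tnfrsf11a (3.09, adjusted p = 0.0852) and Tnfsf14 (-2.06, adjusted p = 0.136). Without heart Sca1 replicate 3 the difference of heart Sca1 cells minus MSC was -4.10 for Tnfrsf23, -4.33 for Tnf and -7.61 for Tnfrsf26, each still called, and it was -2.46 for Tnfsf8 (adjusted p = 0.0794). The number of members called for heart Sca1 cells minus MSC was then 3 in place of 5, and for heart Sca1 cells minus cardiomyocytes 1 in place of 0. The share of all genes called in that refit is not given here, so a shift over all genes cannot be told from one of the members.

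Superfamily members with other names, the adaptors downstream and the NF-kB pathway were read from fixed lists. The shares of all genes called, either way, were those given for the members: 10.8% for heart c-kit minus marrow c-kit cells, 10.3% for heart Sca1 cells minus MSC, 11.2% for heart c-kit minus heart Sca1 cells, 11% for marrow c-kit cells minus MSC, and 3.6%, 0% and 5.2% for heart c-kit, heart Sca1 and SP cells minus cardiomyocytes. Of the 12 members with other names, Eda2r, a receptor of the ectodysplasin family, was higher in heart c-kit than in marrow c-kit cells (6.07 ± 0.70, limma adjusted p = 5.36e-05), and it was the only one of the 12 called there. In heart c-kit against heart Sca1 cells 1 was higher (Eda2r, 2.89) and 2 were lower, the ligand gene Eda (-4.97) and the death receptor gene Fas (-3.85). In heart Sca1 cells minus MSC only Eda was called (4.16), and in marrow c-kit cells minus MSC only Eda2r (-3.09). None of the 12 was called by limma in the 3 comparisons with cardiomyocytes, where 3 of them in heart c-kit, 2 in heart Sca1 and 2 in SP cells had an unadjusted p under 0.05.

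Of the 17 adaptors and death signalling genes, Traf1 was called for heart c-kit minus marrow c-kit cells (5.04 ± 1.51, limma adjusted p = 0.0469), where the arrays of the groups overlapped. Ripk3, a kinase of necroptosis (-5.15), and the adaptor Traf3 (-1.94) were lower in heart Sca1 cells than in MSC. Mlkl, the effector of necroptosis, was higher in heart c-kit than in heart Sca1 cells (3.87), and it was higher than in cardiomyocytes by a log2 difference with a 95% interval from 2.08 to 5.92. Traf4 was lower in heart c-kit than in heart Sca1 cells (-4.09).

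Of the 19 measured genes of the NF-kB pathway, 4 were higher and 1 was lower in heart c-kit than in marrow c-kit cells: the subunit genes Relb (5.19), Nfkb2 (2.74) and Rela (1.61), the inhibitor gene Nfkbia (3.20) and, as the lower one, the kinase gene Ikbke (-4.55). Of all genes 4.89% were higher and 5.93% lower. The median difference over the 19 genes was -0.27. In marrow c-kit cells minus MSC 5 were lower and none higher: Nfkbia (-4.44), Relb (-3.49), Tnfaip3, an inhibitor of the pathway (-3.44), Nfkb2 (-2.32) and Rela (-2.18), against 7.37% of all genes called as lower. Tnfaip3 was also lower in heart c-kit than in heart Sca1 cells (-5.20) and than in cardiomyocytes (-4.93), the only call of the list in each. In SP cells minus cardiomyocytes only Nfkb2 was called, as higher (3.68), and in heart Sca1 cells minus MSC limma called none of the 19, with 2 at an unadjusted p under 0.05.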

How the data were processed

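The authors deposited log2 values of Cy5 spot intensities on 2-colour arrays, of which only the Cy5 channel was used, per the series text. Total RNA was amplified to cDNA and labelled with a Cy5 ester, per the labels' protocols. The deposited values are centred on each array; how the scanner was set, how background was treated and when a spot received the fill value, found at 3.38% to 13.8% of probes, is not given in the sources used here. Array medians ran from -1.02 to 0.43, so the 26423 probes were quantile normalised. Symbols of GEO's platform annotation were updated through RefSeq: 18213 probes matched a current symbol, 2126 a synonym, 38 were ambiguous and 6046 had none. Each gene was read by its probe with the highest mean of deposited values.

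Group means of the 16 arrays were fitted with limma 3.58.1 in R 4.3.3 (lmFit and eBayes), with an F test over the 6 groups, 7 contrasts and 1 interaction, and p-values were adjusted over the 17710 genes of each. The fit was tested on simulated data. Intervals are at 95%.

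The members and lists were chosen with earlier results of these data known. Full values were given for members called by the F test, for up to 6 called members per contrast and for the ligand and receptor sets. Up to 3 called members of each comparison list per contrast were named; Rela and Nfkb2, beyond that number, were named after their values were seen. Settings varied were the normalisation, filters on low values, the probe rule, the moderation, a replicate block, array weights, the groups fitted and each array left out. Promoters were read from RefSeq (GRCm38.p6).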

Additional observations from a re-analysis of the deposited data

Results flagged for a closer look

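For 3 members the difference of heart c-kit minus marrow c-kit cells differed from that of heart Sca1 cells minus MSC, by the interaction term of the limma fit. The interaction was 8.63 ± 1.01 (limma adjusted p = 0.000172) for Tnfrsf23, 6.65 ± 1.33 (limma adjusted p = 0.00726) for Tnfrsf11a and 6.84 ± 1.68 (limma adjusted p = 0.0238) for Tnfrsf10b. Marrow c-kit replicates 1 and 3 held the fill value for Tnfrsf11a, so the size of its interaction is uncertain. The interaction of Tnfrsf10b was lost in 6 of the 16 refits that left out an array.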

How the results depend on the processing

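Of 42 calls of a member in a test, 22 stood in all 16 refits that left out an array, and none changed sign under any setting run. No setting read a gene by its second probe alone. The second probe of Tnfrsf18 gave -0.34 for heart c-kit minus heart Sca1 cells and -1.07 for heart c-kit minus marrow c-kit cells. The probe used gave 3.30 and 2.13. For marrow c-kit cells minus MSC the signs were the same (2.24 and 2.58), as they were for the pairwise calls of Tnfrsf12a. With each array left out in turn, the number of members called ranged from 11 to 17 for the F test, from 3 to 9 for heart c-kit minus marrow c-kit cells, from 3 to 6 for heart Sca1 cells minus MSC, from 3 to 8 for heart c-kit minus heart Sca1 cells and from 3 to 8 for marrow c-kit cells minus MSC. It ranged from 0 to 2, from 0 to 1 and from 0 to 3 for heart c-kit, heart Sca1 and SP cells minus cardiomyocytes, and from 2 to 4 for the interaction. The shares of all genes called in these refits are not given here, so the ranges cannot be read as particular to the members.

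Array weights per group and a fit of only the groups compared gave 3 and 3 members for heart c-kit minus marrow c-kit cells, 11 and 10 for heart Sca1 cells minus MSC, 3 and 3 for heart c-kit minus heart Sca1 cells, and 0 and 0 for SP cells minus cardiomyocytes. The share of all genes called moved the same way: 8.73% and 6.09%, 24.1% and 21.8%, 7.89% and 4.44%, and 0.723% and 0% in the same order. For marrow c-kit cells minus MSC these 2 settings gave 10 and 9 members, with 24.7% and 22.9% of all genes called. For heart c-kit cells minus cardiomyocytes the count was 0 with array medians aligned, with the deposited values and with only the groups compared. It was 2 with the lowest 30% of genes left out, 3 with low values raised and 2 with the mean over probes. The shares of all genes called there were 0.836%, 1.26%, 0.0169%, 6.37%, 6.29% and 3.48% in the same order. Aligned medians gave 3 members for marrow c-kit cells minus MSC, against 8.11% of all genes. Raised low values gave 5 for the interaction, against 10.7% of all genes. Aligned medians moved the median difference of all genes to 0.77 for heart c-kit minus marrow c-kit cells, 0.73 for heart c-kit minus heart Sca1 cells and 0.83, 0.52 and 1.34 for heart c-kit, heart Sca1 and SP cells minus cardiomyocytes. They also ended the 3 pairwise calls of Tnfsf10, that of Tnfsf14 for heart c-kit minus marrow c-kit cells, those of Tnf and Tnfrsf18 for marrow c-kit cells minus MSC, and the F-test calls of Tnfrsf10b and Tnfrsf21. The cause was not tested. Some settings added calls that the main fit did not make. Among those for heart Sca1 cells minus MSC were Tnfrsf11a and Tnfrsf12a, under 5 settings each, and Tnfsf13b and Tnfsf9, under 2 each. For heart c-kit minus heart Sca1 cells Tnfrsf4 was called under 4 settings, and Tnfrsf9, Tnfsf4 and Tnfsf8 under 2 each. For marrow c-kit cells minus MSC Tnfrsf12a was called under 4 settings, Tnfrsf13c under 3 and Tnfrsf21 under 2.

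A replicate block gave 13 members for the F test, 4, 5, 6 and 6 for the first 4 comparisons as listed above, 1, 0 and 1 against cardiomyocytes and 3 for the interaction. The shares of all genes called with the block were 29.2% for the F test and 10.5%, 9.77%, 10.7% and 10.6% for the first 4 comparisons. They were 2.96%, 0% and 4.33% against cardiomyocytes and 6.95% for the interaction. Samples with the same number did not deviate together as a rule, and the numbers were not taken as pairs. Over 36 such pairs the correlation ran from -0.183 to 0.399, with a median of 0.00768 and 4 pairs over 0.1. Some replicate 1 arrays did deviate together. The correlation was 0.399 for heart c-kit cells with cardiomyocytes, 0.316 for marrow c-kit cells with cardiomyocytes and 0.203 for heart c-kit with marrow c-kit cells. Deviations within a group sum to 0, so the median cannot show that no arrays shared a batch. Whether these replicate 1 arrays did was not tested. Dim spots limit the family: Tnfrsf11a, Tnfsf15 and Tnfsf18 were each at the fill value on 4 arrays.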

Other observations

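Several members lie side by side in the genome, as neighbours without another gene between them or with a single gene between them. Tnfsf4 and Tnfsf18 on chromosome 1 both had their highest mean in heart c-kit cells, Ltb and Lta on chromosome 17 both had it there too, and Tnfsf15 and Tnfsf8 on chromosome 4 both had it in SP cells. Of the genes in these pairs, the F test called only Tnfsf18, so the shared rank is weak. Tnfsf8 led in SP cells by only 0.013. Tnfsf15 read from -3.50 to 1.34 on the SP arrays, and its second probe was highest in MSC, at -2.81. The SD of Ltb in heart c-kit cells was 3.55. For the other neighbours the highest group differed: Tnf, between Ltb and Lta, was highest in MSC, Tnfrsf18 was highest in heart c-kit cells and Tnfrsf4 in SP cells, Tnfsf14 in marrow c-kit cells and Tnfsf9 in SP cells, Tnfrsf23 in heart c-kit cells and Tnfrsf26 in MSC, and Tnfrsf1b in marrow c-kit and Tnfrsf8 in heart c-kit cells.

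In the interaction of organ and cell class, the comparison lists held calls as well. Traf1 (8.94), Eda2r (5.99), Nfkbia (3.57), Nfkb2 (3.49) and Rela (2.69) were called as higher, and Eda (-3.89) as lower.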
